A study of Mus musculus with 15 samples.

Results

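The genes described here are 10 genes of the platelet surface, granules and contractile apparatus: the integrin genes Itga2b and Itgb3, the glycoprotein genes Gp1ba, Gp1bb, Gp5 and Gp9, Vwf, Pf4, F2rl2 and Mylk. They were chosen by symbol. All 10 were among the 31298 symbols of the deposited expression table, and all 10 passed the filter on low values that left 27994 genes for testing. The libraries are RNA sequencing of hematopoietic stem cells (HSCs) of hCD34-tTA x TetO-H2BGFP mice, in which a tetracycline transactivator under human CD34 control switches on a green fluorescent histone. Doxycycline (1 mg/ml in drinking water) stops synthesis of the label, which each later division dilutes, so the study used retained label as a proxy for the number of past divisions. The sort gate was LSK CD48- Flk2- CD150+, and its cells were split by label into the bins GFP4, GFP3, GFP2 and GFP1 or kept undivided as Total. Replicates I, II and III of all 5 groups differed in age (5, 5.5 and 6.5 months) and in time on doxycycline (12, 14 and 16 weeks), which makes 3 libraries a group. The labels do not say which end of the numbering kept the most label, and GFP4 is read here as that end. Nor do they say whether a library was 1 mouse or a pool, or whether groups share animals; p-values here reflect library-to-library spread, which may be technical. All cells compared, Total included, came from mice with the transgenes and doxycycline, and only cells in which the CD34 control sequence had been active carry label.

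Platelets are shed by megakaryocytes, and several of their surface proteins are already present on part of the HSC pool. The integrin αIIbβ3, made of the chains encoded by Itga2b (CD41) and Itgb3 (CD61), binds fibrinogen and joins platelets to each other. The glycoprotein Ib-IX-V complex, encoded by Gp1ba, Gp1bb, Gp9 and Gp5, catches von Willebrand factor, the product of Vwf, on the injured vessel wall. Pf4 encodes platelet factor 4, a chemokine stored in alpha granules. F2rl2 encodes PAR3, a protease-activated receptor that presents thrombin to its neighbour PAR4 on mouse platelets. Mylk encodes myosin light chain kinase, which switches on myosin contraction. In mouse HSCs, CD41 and von Willebrand factor are both used to mark stem cells biased towards platelet output.

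Of the 10 genes, 7 were higher in GFP1 than in GFP4, 1 was lower and 2 did not pass the test. The 7 that rose were Itga2b, all 4 genes of the Ib-IX-V complex, Pf4 and F2rl2. Mylk fell. Itgb3, the partner chain of Itga2b, and Vwf, the ligand of the Ib-IX-V complex, did not pass. The libraries of GFP1 and GFP4 did not overlap for 9 of the 10, against 32.8% of all genes. Over all genes tested, 19.5% passed in this comparison, 9.27% higher and 10.3% lower (limma, Benjamini-Hochberg adjusted p under 0.05). The median log2 difference was 2.45 over the 10 genes and −0.07 over all tested genes. The genes were chosen with earlier results of these data known, so these counts describe them and are no test of the group. Bulk RNA cannot tell a larger share of expressing cells from more RNA per cell. Values are log2 expression on one distribution common to all libraries. They are not known to be scaled by transcript length, so levels of different genes are not ranked against each other.

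**Figure D1:**
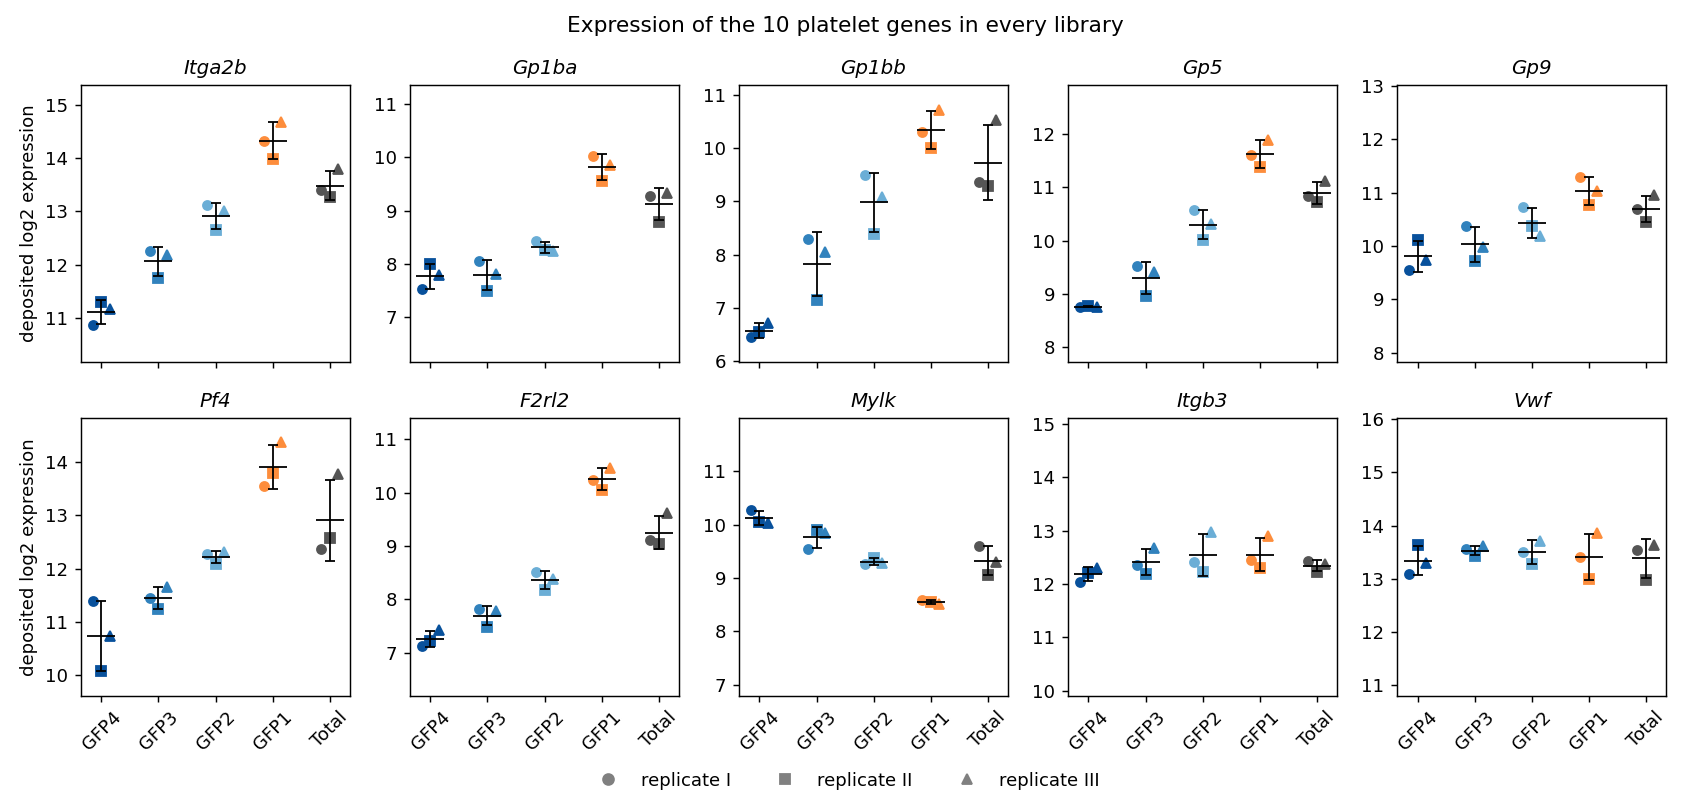
Deposited log2 expression of each gene (y axis, the same span in every panel) in the 3 libraries of each group (x axis); bars are the mean and SD. Itga2b climbs from 11.11 in GFP4 to 14.32 in GFP1, Mylk descends from 10.13 to 8.54, and Vwf stays between 12.97 and 13.85.

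Itga2b lies on chromosome 11, 102453297 to 102470122 (GRCm38, minus strand). Its log2 values in replicates I, II and III were 10.86, 11.30 and 11.17 in GFP4, 12.26, 11.74 and 12.18 in GFP3, 13.11, 12.64 and 13.002 in GFP2, and 14.32, 13.98 and 14.68 in GFP1. Total libraries had 13.40, 13.26 and 13.79. No 2 groups overlapped, and Total fell between GFP2 and GFP1. The log2 difference of GFP1 minus GFP4 was 3.21 (SE 0.21, adjusted p = 1.79e-07), a 9.27-fold difference. The trend over the 4 bins was a gain of 1.05 per bin in log2 units (SE 0.0655, adjusted p = 1.28e-07); 8 of the 10 genes passed this trend test, against 20.1% of all genes.

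Itgb3 is also on chromosome 11, 104608000 to 104670476 (plus strand). Its values were 12.04, 12.20 and 12.30 in GFP4, 12.36, 12.19 and 12.67 in GFP3, 12.41, 12.22 and 12.98 in GFP2, 12.45, 12.31 and 12.90 in GFP1, and 12.43, 12.23 and 12.37 in Total. Groups next to each other in the order of means overlapped. Replicate III was the highest of its bin in all 4 bins, though not in Total. The log2 difference of GFP1 minus GFP4 was 0.37 (95% interval −0.03 to 0.77, adjusted p = 0.226), with every GFP1 library above every GFP4 library. Libraries of one number share age and time on doxycycline, and with replicate number as a block Itgb3 passed in this comparison (adjusted p = 0.0253) and in the trend (adjusted p = 0.0172). Within a library, Itga2b minus Itgb3 went from −1.07 ± 0.15 in GFP4 to −0.34 ± 0.21 in GFP3, 0.38 ± 0.34 in GFP2 and 1.77 ± 0.10 in GFP1 (SD, n = 3), and these 4 ranges did not overlap.

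The 4 genes of the Ib-IX-V complex all rose, by unequal amounts. Gp1ba, the chain that binds von Willebrand factor, lies on chromosome 11, 70639122 to 70642036. Its values were 7.53, 7.996 and 7.78 in GFP4, 8.06, 7.49 and 7.82 in GFP3, 8.43, 8.27 and 8.24 in GFP2, 10.03, 9.55 and 9.86 in GFP1, and 9.28, 8.79 and 9.33 in Total. GFP4 and GFP3 overlapped, and GFP1 stood above every other group. The GFP1 minus GFP4 difference was 2.04 (SE 0.20, adjusted p = 4.91e-07). Gp5, the outermost and most loosely held chain, lies on chromosome 16, 30307685 to 30310779. It had 8.75, 8.78 and 8.76 in GFP4, 9.53, 8.96 and 9.40 in GFP3, 10.57, 10.02 and 10.30 in GFP2, 11.60, 11.38 and 11.89 in GFP1, and 10.84, 10.72 and 11.11 in Total. Its 5 groups did not overlap, as for Itga2b, and the GFP1 minus GFP4 difference was 2.86 (SE 0.17, adjusted p = 1.47e-09).

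Gp9, the small chain needed for surface delivery of the complex (chromosome 6, 87778072 to 87779768), moved least of the 4. Its values were 9.54, 10.12 and 9.74 in GFP4, 10.38, 9.72 and 9.98 in GFP3, 10.74, 10.37 and 10.19 in GFP2, 11.30, 10.76 and 11.03 in GFP1, and 10.69, 10.45 and 10.95 in Total. Every group overlapped its neighbour in the order of means, and GFP1 lay above all GFP4 and GFP3 libraries. The difference of GFP1 minus GFP4 was 1.23 (SE 0.20, adjusted p = 0.000183). Gp1bb, the chain joined to Gp1ba by disulfide bonds (chromosome 16, 18620317 to 18622403), had the largest measured difference of the 10 genes, 3.77 (SE 0.37, adjusted p = 3.37e-06). Its values were 6.45, 6.55 and 6.72 in GFP4, 8.30, 7.15 and 8.05 in GFP3, 9.49, 8.38 and 9.08 in GFP2, 10.31, 10.01 and 10.72 in GFP1, and 9.36, 9.29 and 10.53 in Total. The Gp1bb value is uncertain, because 91.1% of its 2087 annotated exonic bases are also exonic in Sept5 on the same strand, and reads from those bases cannot be given to 1 gene by position. Sept5 was not analysed here.

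**Figure D2:**
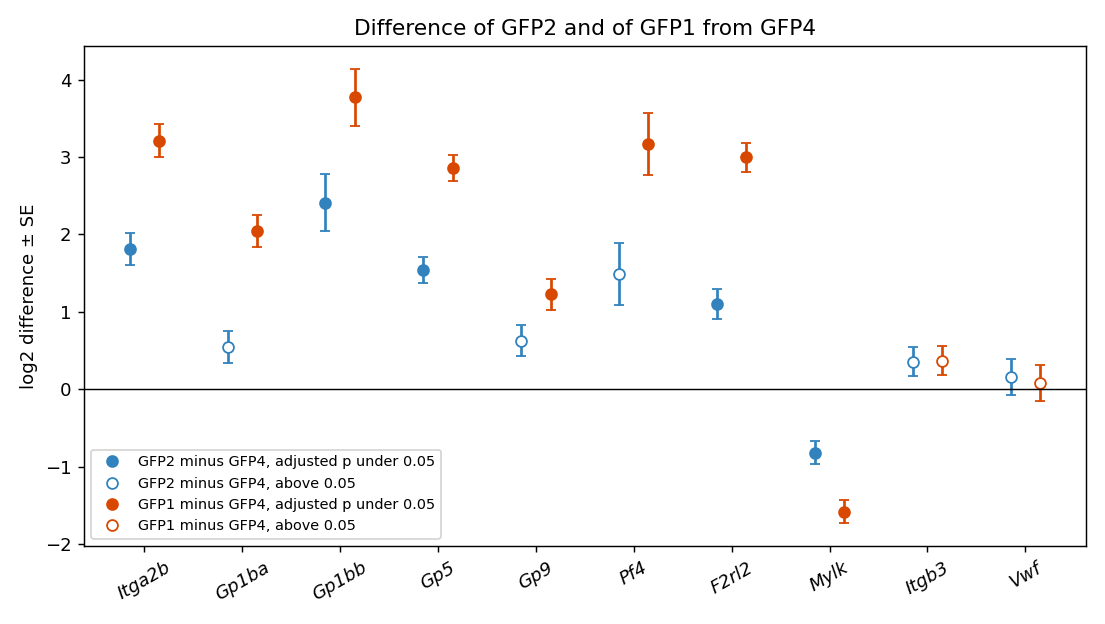
Log2 difference from GFP4 (y axis, with limma's SE) of each gene (x axis) in GFP2 and GFP1; filled points have an adjusted p under 0.05. In GFP1, 8 genes pass, from Gp1bb at 3.77 down to Mylk at −1.58, and Itgb3 and Vwf do not.

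Sequences upstream of 5 of the genes that rose are shown, those with a long stretch free of annotated exons. Exons covered 180 of the 250 bases before the start of Itga2b and all 250 for Gp1bb, which are not shown. RefSeq's table for GRCm38.p6 held a start site for 8 of the 10 genes. The 250 bases before each start were searched on both strands for GATA motifs (AGATAA or its variant AGATAG, and likewise TGATAA or its variant TGATAG) and for ETS motifs (AGGAAG or its variant CGGAAG), the letters read by the GATA1 and FLI1 families of megakaryocyte transcription factors. Below, each stretch runs 5′ to 3′ along the gene's strand, capitals mark the matches, and the stretch ends at the start site or, for F2rl2, just before an annotated exon.
Gp1ba, chr11:70638872-70639121, plus strand: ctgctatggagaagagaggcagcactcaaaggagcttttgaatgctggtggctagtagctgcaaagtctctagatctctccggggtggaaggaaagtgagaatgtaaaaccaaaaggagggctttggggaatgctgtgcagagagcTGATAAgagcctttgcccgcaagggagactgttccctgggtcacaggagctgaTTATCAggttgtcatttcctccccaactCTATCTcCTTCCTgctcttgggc
Gp5, chr16:30310782-30311031, minus strand: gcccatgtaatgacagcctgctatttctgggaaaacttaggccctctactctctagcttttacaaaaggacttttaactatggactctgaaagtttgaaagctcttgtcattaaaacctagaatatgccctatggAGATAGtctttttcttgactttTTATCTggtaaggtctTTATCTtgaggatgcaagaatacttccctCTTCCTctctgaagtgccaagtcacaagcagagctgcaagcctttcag
Gp9, chr6:87777820-87778069, plus strand: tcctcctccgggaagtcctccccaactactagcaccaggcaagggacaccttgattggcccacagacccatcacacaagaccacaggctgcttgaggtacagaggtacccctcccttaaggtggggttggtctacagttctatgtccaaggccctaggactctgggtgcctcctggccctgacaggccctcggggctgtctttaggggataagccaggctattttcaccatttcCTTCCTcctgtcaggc
Pf4, chr5:90772185-90772434, plus strand: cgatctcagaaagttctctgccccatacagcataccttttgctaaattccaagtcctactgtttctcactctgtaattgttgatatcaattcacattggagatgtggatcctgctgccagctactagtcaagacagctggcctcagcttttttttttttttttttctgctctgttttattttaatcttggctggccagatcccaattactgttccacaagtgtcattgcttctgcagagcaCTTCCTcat
F2rl2, chr13:95696670-95696852, plus strand: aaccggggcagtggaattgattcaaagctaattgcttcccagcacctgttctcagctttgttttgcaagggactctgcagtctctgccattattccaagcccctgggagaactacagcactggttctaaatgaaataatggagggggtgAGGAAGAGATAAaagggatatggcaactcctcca

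An ETS match was found in all 8 windows, that of Mylk, which fell, included, and 39.2% of the 32851 windows in the table hold one. The Mylk window (chr16:34784700-34784949, plus strand) lies inside the gene as annotated, which begins at 34745210. It therefore stands before an internal start site. GATA matches were found in 4 of the 8 windows, those of Gp1ba, Gp5, Gp1bb and F2rl2, against 26.5% of all windows. Gp1ba and Gp5 each held 3 GATA matches. In Gp1ba, Gp9 and Pf4 the ETS match began 16, 16 and 9 bases before the start site. In F2rl2 the ETS and GATA letters lie side by side and share no base. These are letter matches in short windows and no measure of binding; Pf4 and Gp9 rose with no GATA match in theirs.

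Pf4 (chromosome 5, 90772435 to 90773383) had the least precise differences of the 10 genes. Its values were 11.39, 10.07 and 10.74 in GFP4, 11.44, 11.25 and 11.65 in GFP3, 12.27, 12.08 and 12.30 in GFP2, 13.56, 13.79 and 14.37 in GFP1, and 12.37, 12.57 and 13.78 in Total. GFP4 replicate I lay within the GFP3 range, and Total replicate III lay within the GFP1 range. The log2 difference of GFP1 minus GFP4 was 3.17 (SE 0.40, adjusted p = 0.000183), a 9.003-fold difference.

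F2rl2 (chromosome 13, 95696853 to 95702739) lies inside Iqgap2 on the opposite strand and shares no exonic base with it. Its values were 7.13, 7.21 and 7.42 in GFP4, 7.83, 7.48 and 7.77 in GFP3, 8.52, 8.18 and 8.37 in GFP2, 10.24, 10.05 and 10.46 in GFP1, and 9.10, 9.04 and 9.61 in Total. No 2 groups overlapped. The difference of GFP1 minus GFP4 was 3.00 (SE 0.19, adjusted p = 3.28e-09).

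Mylk (chromosome 16, 34745210 to 35002420) went the other way. Its values were 10.29, 10.05 and 10.04 in GFP4, 9.54, 9.91 and 9.84 in GFP3, 9.26, 9.38 and 9.28 in GFP2, 8.58, 8.54 and 8.51 in GFP1, and 9.61, 9.06 and 9.29 in Total. The GFP1 libraries lay below all others, and Total overlapped GFP2 and GFP3. Mylk fell by 1.58 on the log2 scale from GFP4 to GFP1 (SE 0.15, adjusted p = 3.12e-07). The table has 1 value per symbol and does not separate the transcripts of Mylk, and 4.9% and 2.0% of its exonic bases overlap the antisense genes E130310I04Rik and Gm21691, whose reads could not be told apart without strand.

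Vwf (chromosome 6, 125546774 to 125686679) was the contrasting case. Its values were 13.08, 13.63 and 13.30 in GFP4, 13.55, 13.43 and 13.61 in GFP3, 13.50, 13.27 and 13.72 in GFP2, 13.41, 12.99 and 13.85 in GFP1, and 13.53, 12.97 and 13.64 in Total. All groups overlapped, and the group means spanned only 13.34 to 13.53. The difference of GFP1 minus GFP4 was 0.08, with a 95% interval of −0.43 to 0.59 (adjusted p = 0.895). The upper end of that interval is below the lower end for Itga2b, 2.76. This describes both genes and is no test of the pair, which was named with the result known. Without GFP4 replicate I the Vwf difference was −0.05, and without GFP1 replicate III it was −0.14.

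Set against each other in the same libraries, Itga2b minus Vwf was −2.23 ± 0.10 in GFP4, −1.47 ± 0.20 in GFP3, −0.58 ± 0.17 in GFP2, 0.91 ± 0.08 in GFP1 and 0.10 ± 0.21 in Total (SD, n = 3). No 2 groups overlapped. In Vwf, GFP1 replicate III was the highest library of all 15 and Total replicate II the lowest. The SD of the GFP1 libraries was 0.43 in Vwf and 0.35 in Itga2b but 0.08 in their difference. That did not hold in every group. In GFP3, Vwf lay between 13.43 and 13.61, and the difference lay further apart, between −1.69 and −1.29. The pair was named with the result known, so the contrast is a description without a test. Over the 15 libraries, Pearson's r with Itga2b was 0.991 for Gp5, 0.983 for Gp1bb, 0.973 for F2rl2, 0.936 for Pf4, 0.932 for Gp1ba, 0.928 for Gp9 and −0.938 for Mylk. It was 0.513 for Itgb3 and 0.186 for Vwf. Itgb3 was nearer to Vwf (r = 0.686) than to Itga2b. The points share the common distribution and the 5 groups, so r describes the shape of the profile. For Vwf, whose group means hardly differed, r rests mainly on the spread between replicates. Itgb3 and Vwf were both lowest in replicate II within GFP3, GFP2, GFP1 and Total, and in replicate I within GFP4.

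**Figure D3:**
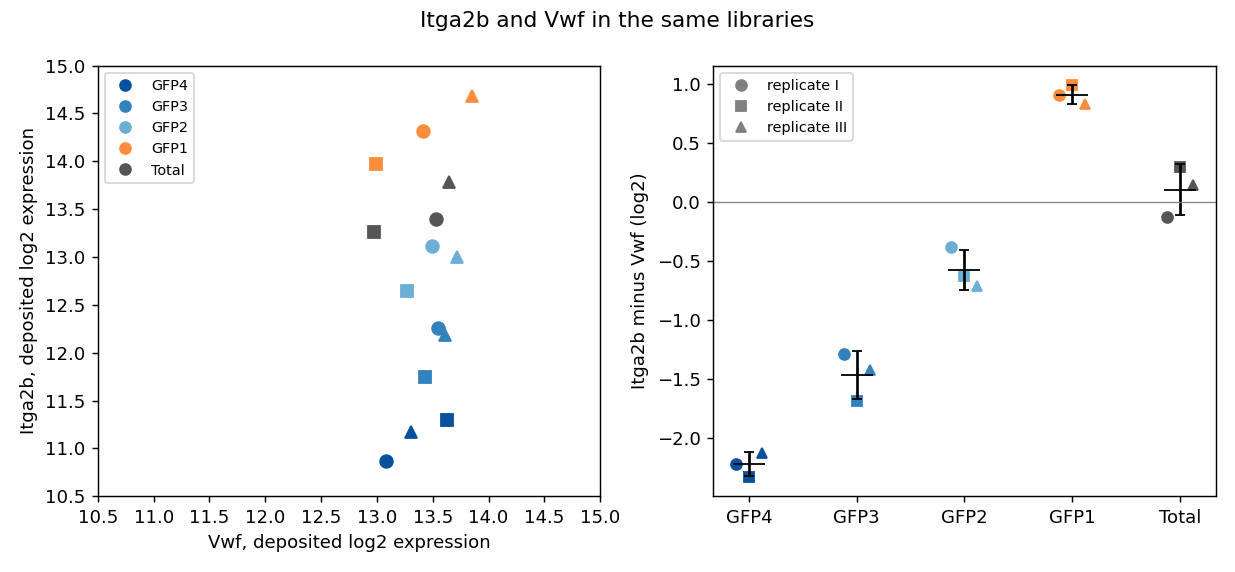
Left, log2 expression of Itga2b (y axis) against Vwf (x axis), 1 point per library, both axes spanning the same range. Right, Itga2b minus Vwf in each library by group, with mean and SD; the difference goes from −2.23 in GFP4 to 0.91 in GFP1 and is 0.10 in Total.

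The search for like profiles took in 9773 genes, those whose mean was 10 ppm or more of a library's summed linear values, without immunoglobulin genes and symbols of predicted genes or clones. The 5 genes with a profile most like Itga2b were Chaf1a, a chromatin assembly subunit (r = 0.993), Incenp, of the chromosomal passenger complex (r = 0.992), Gp5 (r = 0.991), Fen1, a flap endonuclease of DNA replication (r = 0.990), and Kpna2, an importin (r = 0.988). Those most like Vwf were Matn4, a matrilin (r = 0.807), Selp, the granule membrane protein P-selectin (r = 0.791), Atxn7l2 (r = 0.782), Wwox (r = 0.756) and Gfi1b, an erythroid and megakaryocyte repressor (r = 0.746). The best match of Vwf was looser than the fifth match of Itga2b. With nearly flat group means, Vwf could match other genes mainly through spread within groups, so this contrast adds nothing on Vwf. Within GFP3, GFP2, GFP1 and Total, the genes Vwf, Selp and Gfi1b were each lowest in replicate II, and within GFP4 in replicate I. Whether these genes also share a course over the bins was not tested.

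GFP1 and Total libraries held more immunoglobulin transcripts, at 4.34% to 5.49% of summed linear values against 0.00726% to 0.0737% in GFP2, GFP3 and GFP4. These are shares of normalized values and not of RNA. Igkc had the highest deposited value, 19.1156, in every GFP1 and Total library. The bins with little immunoglobulin were therefore compared as well. Its amount still differed between their libraries, with Igkc from 9.02 to 12.88. Of the 10 genes, 5 passed in GFP2 against GFP4, 4 higher and 1 lower, against 4.35% of all genes (2.69% higher, 1.67% lower). The libraries of these bins did not overlap for 8 of the 10, against 20% of all genes. Gp1bb was higher by 2.41 (SE 0.37, adjusted p = 0.00165), Itga2b by 1.81 (SE 0.21, adjusted p = 0.000362), Gp5 by 1.54 (SE 0.17, adjusted p = 4.93e-05) and F2rl2 by 1.10 (SE 0.19, adjusted p = 0.00173), and Mylk fell by 0.82 (SE 0.15, adjusted p = 0.00297). Pf4 (1.49, SE 0.40, adjusted p = 0.073), Gp9 (0.63, SE 0.20, adjusted p = 0.0944), Gp1ba (0.54, SE 0.20, adjusted p = 0.181), Itgb3 (0.36, SE 0.19, adjusted p = 0.443) and Vwf (0.16, SE 0.23, adjusted p = 0.876) did not pass. When only GFP4, GFP3 and GFP2 were fitted, an alternative chosen after seeing the data, the same 5 genes passed and Pf4 passed with them (adjusted p = 0.0464). Pf4 also passed with the replicate block (adjusted p = 0.0454), with array weights (adjusted p = 0.03), with a filter at 1 ppm (adjusted p = 0.031) and without Total replicate III (adjusted p = 0.0212). This comparison and that of GFP1 share the GFP4 libraries. In a quantile normalization repeated without immunoglobulin genes, Itga2b was 3.26 higher in GFP1 than in GFP4, Gp5 2.90, Pf4 3.21 and F2rl2 3.06, and Mylk fell by 1.501; 7 genes were higher and 1 lower, as before.

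Step by step, the calls lay between GFP2 and GFP1. There 7 of the 10 genes passed, 6 higher and 1 lower, against 7.17% of all genes (3.06% higher, 4.1% lower). GFP1 and GFP2 libraries did not overlap for 8 of the 10, against 24.6% of all genes. F2rl2 rose by 1.89 (SE 0.19, adjusted p = 5.17e-06), Pf4 by 1.69 (SE 0.40, adjusted p = 0.0295), Gp1ba by 1.503 (SE 0.20, adjusted p = 0.00012), Itga2b by 1.41 (SE 0.21, adjusted p = 0.00113), Gp1bb by 1.36 (SE 0.37, adjusted p = 0.0375) and Gp5 by 1.33 (SE 0.17, adjusted p = 6.11e-05), while Mylk fell by 0.76 (SE 0.15, adjusted p = 0.00354). Gp9 missed the threshold (0.60, SE 0.20, adjusted p = 0.0848) and passed without GFP2 replicate I (adjusted p = 0.0415). Pf4 and Gp1bb passed narrowly. Pf4 lost the call without any 1 of the GFP2 or GFP1 libraries (adjusted p from 0.052 to 0.113). Gp1bb lost it without GFP2 replicate II or III, GFP1 replicate I or III, any GFP4 library or GFP3 replicate III, with the highest adjusted p, 0.151, without GFP2 replicate II, and also with only the compared groups fitted (adjusted p = 0.0512).

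The earlier steps gave no call at the same threshold. From GFP4 to GFP3, 0 of the 10 genes passed (limma, 5 at an unadjusted p under 0.05, against 5.86% of all genes), where only 0.0572% of all genes passed after adjustment. From GFP3 to GFP2, 0 of 10 passed (6 at an unadjusted p under 0.05, against 5.6% of all genes), and so did 0% of all genes. The libraries of GFP3 and GFP4 did not overlap for 5 of the 10 genes, against 11.4% of all genes; those of GFP2 and GFP3 did not for 7, against 10.4%. Itga2b was higher by 0.95 (SE 0.21, adjusted p = 0.162) in GFP3 than in GFP4 and passed without GFP3 replicate II (adjusted p = 0.0482) and with the replicate block (adjusted p = 0.0326). Gp5 was higher by 1.00 (SE 0.17, adjusted p = 0.0866) in GFP2 than in GFP3, and passed without GFP3 replicate I (adjusted p = 0.0303) or GFP2 replicate II (adjusted p = 0.0429) and with the replicate block (adjusted p = 0.011). Gp1ba had almost no difference between GFP3 and GFP4 (0.02, SE 0.20).

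Whether the last step was larger than the middle one was tested directly, as the difference between the 2 steps. None of the 10 genes passed (0 of 10 by limma, 2 at an unadjusted p under 0.05 against 6.06% of all genes), and 0.15% of all genes did. The 2 were F2rl2 (1.23, SE 0.33, adjusted p = 0.242) and Gp1ba (0.98, SE 0.35, adjusted p = 0.581). For Itga2b the last step exceeded the middle one by 0.55 (95% interval −0.23 to 1.33). More calls in the last step therefore do not show a larger step.

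**Figure D4:**
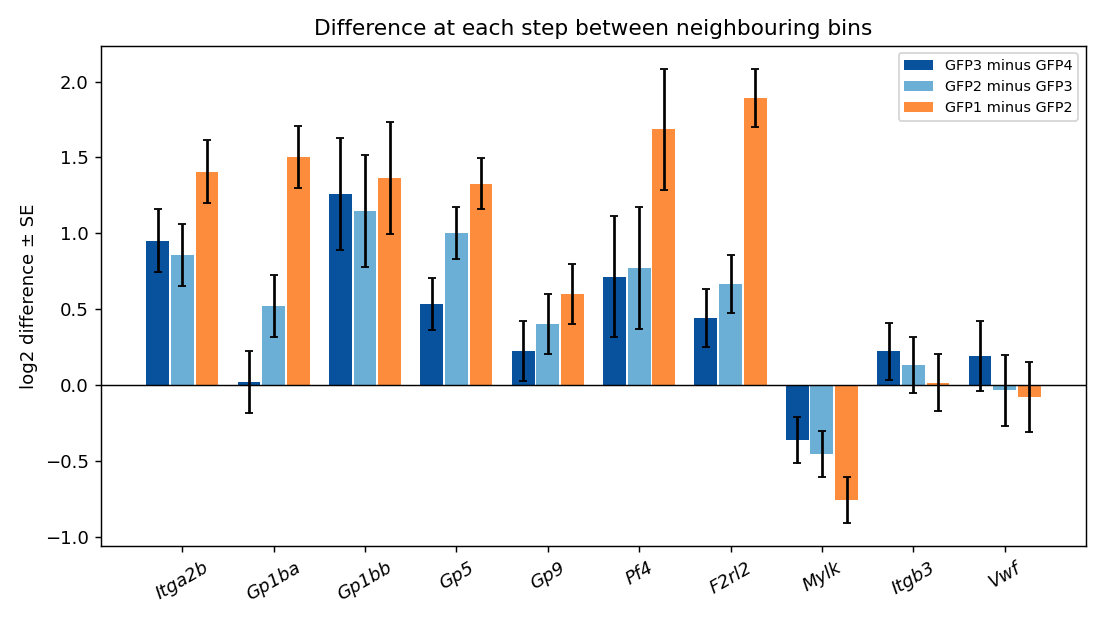
Log2 difference at each step between neighbouring bins (bars from 0, with limma's SE) for each gene (x axis). F2rl2 has 0.44, 0.66 and 1.89 in order from GFP4, Gp1bb has 1.26, 1.15 and 1.36, and Itgb3 is at most 0.22 and Vwf at most 0.19 at any step.

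Against Total, the undivided sort, the genes that rose were lowest in GFP4. In GFP4, 7 genes were lower than in Total, 1 was higher (Mylk) and 2 did not pass, against 10% of all genes passing (4.7% higher, 5.29% lower). Pf4 was 1 of the 7 (−2.17, SE 0.40, adjusted p = 0.0059) and missed the threshold with only the compared groups fitted (adjusted p = 0.138). Itga2b fell by 2.37 (SE 0.21, adjusted p = 1.5e-05) and Gp1bb by 3.15 (SE 0.37, adjusted p = 7.7e-05). In GFP3, 5 were lower (Itga2b, Gp1ba, Gp1bb, Gp5 and F2rl2), against 2.14% of all genes (0.672% higher, 1.47% lower). Gp1bb lost that call with only the compared groups fitted (adjusted p = 0.0966) and without GFP3 replicate II (adjusted p = 0.0704) or III (adjusted p = 0.0534), and Gp9 gained one without GFP3 replicate I (adjusted p = 0.0359). In GFP2 none of the 10 passed (0 by limma, 4 at an unadjusted p under 0.05 against 6.72% of all genes), where 0.329% of all genes did; F2rl2 was nearest, with −0.90 (SE 0.19, adjusted p = 0.0503), and passed in the normalization without immunoglobulin genes (adjusted p = 0.0459) and with the replicate block (adjusted p = 0.0146). In GFP1, 3 passed, against 1.73% of all genes (0.318% higher, 1.41% lower): F2rl2 was higher by 1.00 (SE 0.19, adjusted p = 0.00918), Gp5 was higher by 0.73 (SE 0.17, adjusted p = 0.0291) and Mylk fell by 0.78 (SE 0.15, adjusted p = 0.0102). All 3 lost the call without GFP1 replicate III (0 of 10 left) or with only the compared groups fitted (0 of 10 left), and only F2rl2 kept it without Total replicate I. Gp5 also lost it without GFP1 replicate I (adjusted p = 0.0861) or Total replicate II (adjusted p = 0.116). Itga2b gained a call without GFP1 replicate II (adjusted p = 0.0308) or GFP3 replicate II (adjusted p = 0.0494). It also gained one with the replicate block (adjusted p = 0.0111) and with a filter at 1 ppm (adjusted p = 0.0328). For the 7 genes that rose, the Total mean lay between those of GFP2 and GFP1.

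The rest of the platelet programme did not move as one. Of 76 other genes of platelets and megakaryocytes, 22 were higher in GFP1 than in GFP4, 15 were lower and 39 did not pass, beside the 19.5% of all genes that passed. Their median log2 difference was 0.11, against −0.07 over all genes. Among 18 receptors and their first signalling proteins, 7 rose and 4 fell. F2r, the thrombin receptor PAR1, rose by 1.46 (SE 0.11, adjusted p = 1.38e-08), the kinase Syk by 1.23 (SE 0.11, adjusted p = 1.43e-07) and the ADP receptor P2ry1 by 2.30 (SE 0.22, adjusted p = 3.2e-07). Pear1, a receptor at platelet contacts, fell by 0.79 (SE 0.11, adjusted p = 3.4e-05) and the adaptor Lcp2 by 0.50 (SE 0.081, adjusted p = 0.000118).

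Of 7 genes for integrin activation 4 rose and 1 fell. Rap1b, the small GTPase that switches platelet integrins on, rose by 0.91 (SE 0.12), Vcl, vinculin, by 0.61 (SE 0.10) and Fermt3, kindlin-3, by 0.70 (SE 0.12), while Apbb1ip, the Rap1 effector RIAM, fell by 0.46 (SE 0.11). Of 21 genes for granule cargo and granule formation 5 rose and 3 fell. Tgfb1 rose by 1.45 (SE 0.11), Slc35d3, of dense granules, by 1.77 (SE 0.31) and Rab27b, of granule transport, by 0.83 (SE 0.14). Mmrn1, the alpha-granule protein multimerin, fell by 1.05 (SE 0.14), Cd63 by 0.65 (SE 0.11) and Nbeal2, needed to form alpha granules, by 0.69 (SE 0.13).

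Cytoskeletal genes had 3 of 12 higher and 1 lower, with the tubulins Tuba8 (3.69, SE 0.17) and Tuba4a (0.74, SE 0.084) and the actinin Actn1 (0.78, SE 0.14) higher, and the kinase Rock1 falling by 0.34 (SE 0.091). Of 6 enzymes and signalling proteins of the thromboxane and cyclic nucleotide pathways, Pde5a rose by 1.36 (SE 0.20), and Tbxas1, thromboxane synthase, fell by 1.07 (SE 0.11) and Gng11 by 0.87 (SE 0.15). Among 12 megakaryocyte transcription factors 2 rose and 4 fell. Gata1 rose by 5.03 (SE 0.37, adjusted p = 7.85e-07), from 6.71 ± 0.73 in GFP4 to 11.74 ± 0.31 in GFP1, and Mef2c by 0.41 (SE 0.10). Nfe2 fell by 0.44 (SE 0.087), Mafg by 0.44 (SE 0.12) and Meis1 by 0.42 (SE 0.13, adjusted p = 0.0308). Meis1 lost the call without any GFP4 library, GFP1 replicate II or GFP1 replicate III (highest adjusted p = 0.128) and in the normalization without immunoglobulin genes (adjusted p = 0.0792), and Mafg lost it without GFP4 replicate II, GFP1 replicate II or GFP1 replicate III (highest adjusted p = 0.0945).

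**Figure D5:**
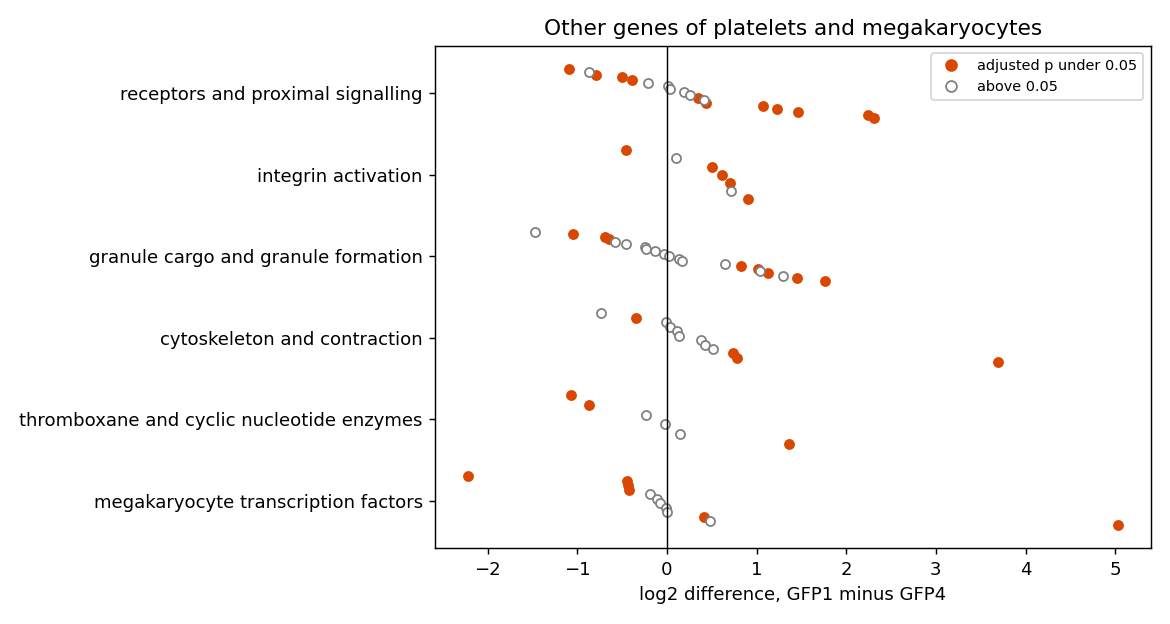
Log2 difference of GFP1 minus GFP4 (x axis) for 76 other platelet and megakaryocyte genes, 1 point each, by role (y axis); filled points have an adjusted p under 0.05. Each role holds genes on both sides of 0, and Gata1 is the highest at 5.03.

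Among the 76 were 5 genes often used to mark megakaryocytes and platelets. Treml1, a receptor stored in alpha granules, rose by 2.24 (SE 0.22, adjusted p = 3.99e-07), and Ppbp, a granule chemokine, by 1.12 (SE 0.32, adjusted p = 0.0144), which it lost without GFP4 replicate II (adjusted p = 0.0567) or GFP1 replicate III (adjusted p = 0.122). Tubb1, the tubulin of the platelet rim, had 0.52 (SE 0.42, adjusted p = 0.513), and Gp6, the collagen receptor, had 0.25 (SE 0.45, adjusted p = 0.81). Clec1b, the podoplanin receptor, had −0.87 (SE 0.31, adjusted p = 0.0536). It passed as lower in 7 of 24 alternatives. They were the replicate block (adjusted p = 0.0284), only the compared groups fitted (adjusted p = 0.0193), array weights (adjusted p = 0.0286) and a filter at 1 ppm (adjusted p = 0.0382). The others left out GFP2 replicate I (adjusted p = 0.016), GFP1 replicate III (adjusted p = 0.0422) or Total replicate III (adjusted p = 0.048). Gp6 lay between 4.29 and 5.19 in the GFP1 libraries and 4.10 and 4.90 in GFP4, low values on this scale.

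Markers of the sorted cells and of other cells were compared in the same way, beside the 19.5% of all genes that passed in GFP1 against GFP4 (9.27% higher, 10.3% lower). The 8 HSC markers summed to 1830 to 1990 ppm in GFP4 and 565 to 628 ppm in GFP1, and 6 fell. Of 9 plasma cell markers all 9 were higher in GFP1 (257 to 557 ppm in GFP4, 19500 to 20500 in GFP1, 17800 to 21300 in Total). The GFP1 and Total sums hold Igkc at the highest deposited value and are no RNA shares. Of 7 B cell markers 6 were higher (71.8 to 97.1 against 193 to 311 ppm). Of the 8 markers of T or NK cells (60.2 to 67.4 against 173 to 216 ppm) 3 were higher, Cd3g, Nkg7 and Il2rb. Another 1, Klrb1c, was lower by 2.20 (SE 0.24, adjusted p = 1.72e-06). Nkg7 weighed most in the GFP1 sum, at 11.91 to 12.57 against 8.56 to 9.52 in GFP4, so the sum does not stand for the list. Of 10 erythroid markers 4 were higher (162 to 356 against 370 to 490 ppm): Epor, Klf1, Car1 and Ermap. Of 10 endothelial markers, a cell type that also makes von Willebrand factor, 2 were lower, Kdr and Emcn (228 to 244 against 166 to 200 ppm). None of 9 smooth muscle and stromal markers, 8 neutrophil markers or 8 macrophage markers passed by limma, 0 of them at an unadjusted p under 0.05. They were not absent. Neutrophil markers summed to 2390 to 6260 ppm in GFP4 and 3170 to 5780 in GFP1. Macrophage markers had 120 to 449 and 100 to 944 ppm, a wide spread between libraries, and the stromal list had 63.1 to 224 and 96.1 to 147 ppm. Each marker exceeded a linear value of 1 in at least 1 library of every group. In GFP2 against GFP4, where 4.35% of all genes passed, 3 of 8 HSC markers and 1 of 10 endothelial markers were lower, 1 of 10 erythroid markers and 1 of 8 T or NK cell markers were higher, and 0 of 9 plasma cell, 0 of 7 B cell, 0 of 9 smooth muscle and stromal, 0 of 8 neutrophil and 0 of 8 macrophage markers passed by limma. At an unadjusted p under 0.05, 2 of the 9 plasma cell markers and 0 of those in the other 4 lists with no call passed. The part of these cells in the platelet gene values was not tested.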

How the data were processed

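RNA from sorted cells was amplified with SMART-Seq v4 and made into libraries with Nextera XT, per the labels' protocols. Kallisto 0.43.0 and GRCm38 are named in the submitters' processing notes. The authors deposited log2 values per gene symbol; their columns share one distribution (quantile normalized, judged from the values, lowest value 0.1375). The sources used here do not give the offset, the unit before the logarithm or the read depth, so the depth is unknown and no counting interval is printed. Linear values are 2 to the power of the log2 value, minus 1. A gene entered the fit where 3 or more libraries had a linear value of 1 or higher. The fit had 1 mean per group and used limma 3.58.1 in R 4.3.3 (trended, robust, residual df 10, no covariate), and p-values were Benjamini-Hochberg adjusted over 27994 genes. The model was tested on simulated data. Members and gene lists were chosen with earlier results of these data known. The 10 members are all named; of the other lists, up to 3 genes each way by smallest p among those past the threshold, plus 5 platelet markers; 1 gene this rule names is not reported here. Coordinates are from GENCODE M21. Alternatives are in the closing section.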

Additional observations from a re-analysis of the deposited data

How the results depend on the processing

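The fit was repeated under 9 alternatives that kept all libraries and with each of the 15 libraries left out in turn; leaving out the GFP1 and Total libraries was added after seeing the data. Of 2670 repeated values for the 10 genes, 2580 kept their direction and their side of the threshold, 29 lost a call, 22 gained one and 39 changed sign. Of 791 for the other named genes, 773 kept both, 11 lost a call and 7 gained one. In GFP1 against GFP4, 8 of the 10 genes passed under each alternative except the replicate block, where Itgb3 made 9 (adjusted p = 0.0253).

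The labels give libraries of one number the same age and time on doxycycline, and do not say whether they share animals. Deviations from group means correlated over 0.1 in 20 of 30 pairs of one number (median 0.293) and in 13 of 60 pairs of different numbers (median −0.135), and 12 of 15 libraries correlated best with one of their own number. With the replicate block, 1 gene passed in GFP3 against GFP4 (Itga2b), 1 in GFP2 against GFP3 (Gp5) and 1 in GFP2 against Total (F2rl2), where 0 had. The block also added Itga2b in GFP1 against Total (adjusted p = 0.0111) and Pf4 in GFP2 against GFP4 (adjusted p = 0.0454), and it ended no call of the 10 genes. F2rl2 also made that count 1 in the normalization without immunoglobulin genes, with a filter at 1 ppm and with a pseudocount of 10. With compared groups only, 0 passed in GFP1 against Total. Leaving out 1 library gave 0 to 1 genes in GFP3 against GFP4 and in GFP2 against GFP3, and 0 to 4 in GFP1 against Total.

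Signs changed only in values that missed the threshold, and the cause was not tested. With array weights, the Vwf trend was −2e-04, Gp1ba in GFP3 minus GFP4 −0.0348, Mylk in GFP2 minus Total 0.0103 and Vwf in GFP4 minus Total 0.0621. The last minus the middle step of Vwf was 0.0116 with median-of-ratios rescaling and 3e-04 without immunoglobulin genes. With 1 library left out, the ranges for Vwf were −0.1384 to 0.2928 (GFP1 minus GFP4), −0.0451 to 0.0843 (trend), −0.1473 to 0.0765 (GFP2 minus GFP3), −0.2951 to 0.1361 (GFP1 minus GFP2), −0.2667 to 0.181 (last minus middle step), −0.1812 to 0.2499 (GFP1 minus Total), −0.0917 to 0.2443 (GFP2 minus Total), −0.056 to 0.28 (GFP3 minus Total) and −0.2484 to 0.0876 (GFP4 minus Total). For Itgb3 they were −0.088 to 0.2894 (GFP2 minus GFP3), −0.1568 to 0.2354 (GFP1 minus GFP2), −0.4315 to 0.3234 (last minus middle step), −0.028 to 0.3494 (GFP2 minus Total) and −0.0723 to 0.1682 (GFP3 minus Total). The last minus the middle step ranged from −0.3854 to 0.7198 for Gp1bb and from −0.0473 to 0.5025 for Gp9. Gp1ba in GFP3 minus GFP4 ranged from −0.114 to 0.1732, and Mylk in GFP2 minus Total from −0.1447 to 0.1257.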
